A study of Mus musculus with 16 samples.

Results

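RNA of endothelial cells was compared between mouse embryos with 1 wild-type Notch1 allele and 1 allele named 12 (+/12, 3 libraries) and wild-type embryos (+/+, 3 libraries), both at embryonic day 9.5. These 6 libraries are 6 of the 16 in the series, chosen by their genotype labels alone. In the 12 allele the intracellular domain of Notch1 is exchanged for that of Notch2, so +/12 embryos have both receptor tails behind a Notch1 extracellular domain, and +/+ embryos have the Notch1 tail only. All cells were taken from whole embryos by sorting for the surface protein CD31, and for both genotypes the labels call endothelial development normal. The labels do not say how many embryos made up a library, and they name wild type N1_plus_plus for replicate 1 and N1_pl_pl for replicates 2 and 3. The spread that the p-values rest on is that of libraries, and part of it may be technical. The other 10 libraries carried the genotypes 12/- (3), 12/vg (1), +/- (3) and +/vg (3), where - is a deleted allele and vg an allele whose released domain is less stable. They entered the same fit for the estimate of the spread and are named only where they bear on a result.

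Notch receptors are cut within the membrane after a ligand on a neighbouring cell binds them, and the freed intracellular domain joins the DNA-binding protein Rbpj in the nucleus to switch on target genes. In embryonic vessels Notch1 and its ligand Dll4 restrain sprouting and help to set arterial identity, and Hey1, Hes1, Nrarp and Efnb2 are among the genes that respond. Notch2 is made at lower levels in most endothelium and is better known from other cell types.

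The coding sequences around the place where the freed domain begins are shown because they mark the part of the receptor in which the 12 allele differs. Capitals mark valine codon 1744 of Notch1 (chromosome 2, minus strand), the residue that the vg allele of this series changes, and the codon of Notch2 that aligns with it, codon 1699 (chromosome 3, plus strand). Each line starts 4 codons before it and runs 60 bases, from GENCODE M21 transcripts of the build GRCm38.
Notch1: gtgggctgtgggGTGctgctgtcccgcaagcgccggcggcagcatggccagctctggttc
Notch2: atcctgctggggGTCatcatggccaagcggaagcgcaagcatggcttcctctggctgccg
From that codon to its end the coding sequence of Notch1 runs 2364 of 7593 nt (31.1%), and that of Notch2 runs 2325 of 7419 nt (31.3%). In the translated alignment 415 of 788 positions from the codon on were identical (52.7%), and 978 of 1743 before it (56.1%). Neither the labels nor the files state the junction of the 12 allele, and the deposited tables hold 1 value per transcript, so a level of Notch1 or Notch2 covers the whole gene. RNA of the Notch2 tail made from the 12 allele cannot be told apart from that of the Notch2 gene in these values. How much of it entered the Notch2 level, or was missing from the Notch1 level, was not tested.

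The 6 libraries were similar in depth and breadth. Aligned sequence ran from 1.11 to 1.80 gigabases, and 10038 to 10415 genes had an FPKM, a fragment count divided by transcript length and library depth, of at least 1. Levels are given as scaled FPKM, after a further division that puts the libraries on 1 scale. Across genes, which do not count as replicates, Pearson's r of the log2 levels was 0.918 to 0.925 within +/12, 0.897 to 0.924 within +/+ and 0.905 to 0.924 between them. Each library carries a number, which is between 203 and 209 in +/12 and between 371 and 376 in +/+. The labels do not say what these numbers stand for, but no +/12 library lies in the high range and no +/+ library in the low one, so genotype and number range cannot be told apart in these 6. Only +/- and +/vg hold libraries of both ranges, 1 low and 2 high each, and a range difference (low minus high) estimated from them is given for the main genes and lists below. It rests on 2 low and 4 high libraries, and 1 of the high ones, +/- replicate 2, is shallow (0.189 gigabases). Range differences, and fold changes with the range as a term, are therefore imprecise, and most are given as point estimates. That term had 974 genes at an unadjusted p under 0.05 (9.23%) and 1 at an adjusted p under 0.05 (0.00948%) in limma. With it in the fit, the median log2 fold change changed sign in 17 of the 31 gene lists described below.

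Across all 10550 genes tested, no gene differed between +/12 and +/+ at an adjusted p under 0.05 in limma (0%). The smallest adjusted p was 0.312, and the next was 0.863. At an unadjusted p under 0.05 there were 567 genes (5.37%), of which 321 were higher (3.04%) and 246 lower (2.33%) in +/12. Without scaling between libraries this split was 155 higher and 271 lower, with a median log2 fold change over all genes of -0.05. Without +/+ replicate 1 the count was 898. The median log2 fold change was 0.00, with a median standard error of 0.19, and 125 genes had a log2 fold change of at least 1 and 127 of at most -1. None of the differences given below passed the adjusted test, and "higher" and "lower" describe levels only.

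**Figure D1:**
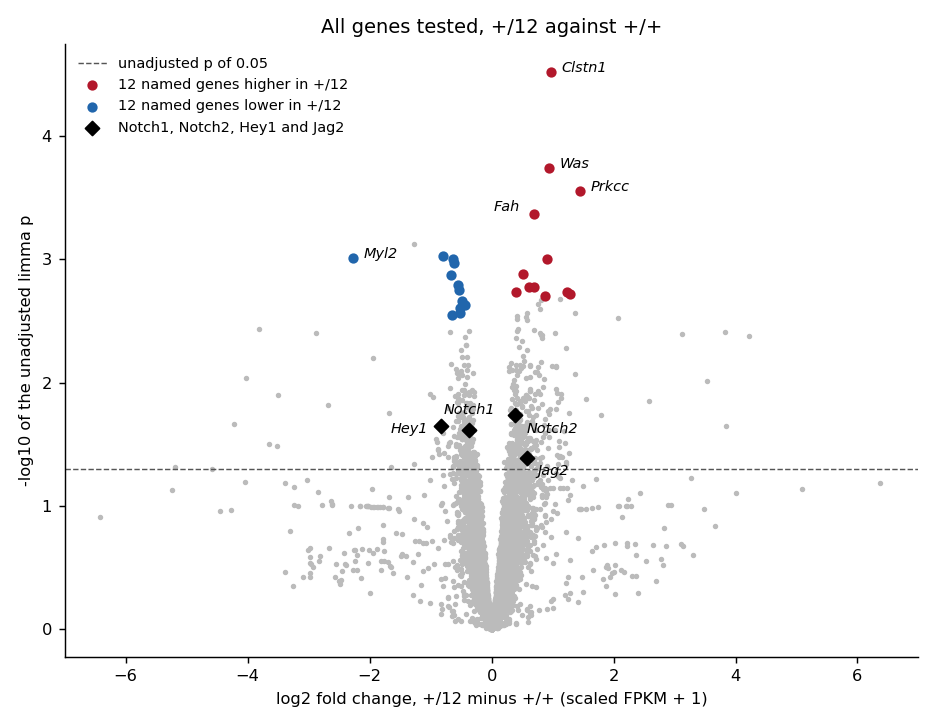
Each point is 1 of the 10550 genes tested, with the log2 fold change of +/12 minus +/+ on the x axis and -log10 of the unadjusted limma p on the y axis. The point with the smallest p is Clstn1, at an adjusted p of 0.312, and the 4 diamonds (Notch1, Notch2, Hey1 and Jag2) lie just above the dashed line at an unadjusted p of 0.05.

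Notch1, the edited gene (chromosome 2, 26313422 to 26359342, mm9), was measured at 14.5, 16.0 and 16.0 scaled FPKM in the +/12 libraries, against 23.3, 20.7 and 17.4 in the +/+ libraries. All 3 +/12 libraries were below all 3 +/+ libraries, though the lowest +/+ library was close to them. The means were 15.5 ± 0.912 in +/12 and 20.5 ± 2.92 in +/+ (SD, n = 3 each). The log2 fold change was -0.37 ± 0.15 (SE, 95% interval -0.68 to -0.06), with an unadjusted p of 0.0243 and an adjusted p of 0.898 in limma.

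Notch2 (chromosome 3, 97817461 to 97954290, mm9) was measured at 3.89, 4.26 and 4.40 scaled FPKM in the +/12 libraries, against 2.67, 3.31 and 2.89 in the +/+ libraries. All 3 +/12 libraries were above all 3 +/+ libraries. The means were 4.19 ± 0.263 in +/12 and 2.96 ± 0.323 in +/+ (SD, n = 3 each). The log2 fold change was 0.39 ± 0.15 (SE, 95% interval 0.08 to 0.71), with an unadjusted p of 0.0184 and an adjusted p of 0.898 in limma. An exact two-sided permutation test over the 6 libraries gave p = 0.1 for each of the 2 genes, the smallest that 20 arrangements allow, and 0.1 after adjustment over both. With the number range as a term in the fit the log2 fold changes were -0.49 for Notch1 and 0.56 for Notch2. Their unadjusted limma p-values were then 0.0395 and 0.0203, with an adjusted p of 0.998 for each. The range differences were 0.12 and -0.17 as point estimates, opposite in sign to the genotype difference for both genes. The libraries behind them, given below, do not settle that sign.

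Without +/+ replicate 1, the library with the highest Notch1 level, the log2 fold change of Notch1 was -0.28 and that of Notch2 0.34. In 12/- libraries Notch1 was at 19.7, 16.2 and 15.4, in +/- libraries at 16.4, 20.0 and 23.2 and in +/vg libraries at 23.2, 20.6 and 20.4. The +/- libraries spread over much of the +/+ range. The lowest of them, at 16.4, lay just above all +/12 libraries, and 12/- libraries lay on both sides of it. Replicate 3 is the 1 low-range library of +/- and of +/vg. For Notch1 it was the highest of the +/- and the lowest of the +/vg libraries, so their range differences had opposite signs. The 12/- libraries, which also carry a 12 allele, had Notch2 levels of 4.11, 4.37 and 3.39. The single 12/vg library, a shallow one with 0.262 gigabases, had 4.28. All of these were above the +/+ libraries. Without a 12 allele, Notch2 was at 2.33, 3.41 and 2.25 in +/- libraries and at 2.91, 2.10 and 2.26 in +/vg libraries, and +/- replicate 2, a shallow library with 0.189 gigabases, was also above all +/+ libraries. That library is 1 of the 4 high-range libraries behind the Notch2 range difference. The other Notch receptors did not separate the genotypes. Notch4, a receptor found mainly in endothelium, was measured at 9.54, 12.4 and 11.9 in +/12 libraries, against 7.98, 11.1 and 8.93 in +/+ libraries (log2 fold change 0.25 ± 0.21, SE, and -0.08 with the range as a term). Notch3, known best from vascular mural cells, was at 2.39, 1.37 and 1.37 in +/12 libraries, against 1.70, 1.74 and 2.05 in +/+ libraries (-0.08 ± 0.20, SE). The groups overlapped for both genes. Summed over the 4 receptors the level ran from 30.3 to 34.1 scaled FPKM in +/12 and from 31.3 to 36.8 in +/+.

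**Figure D2:**
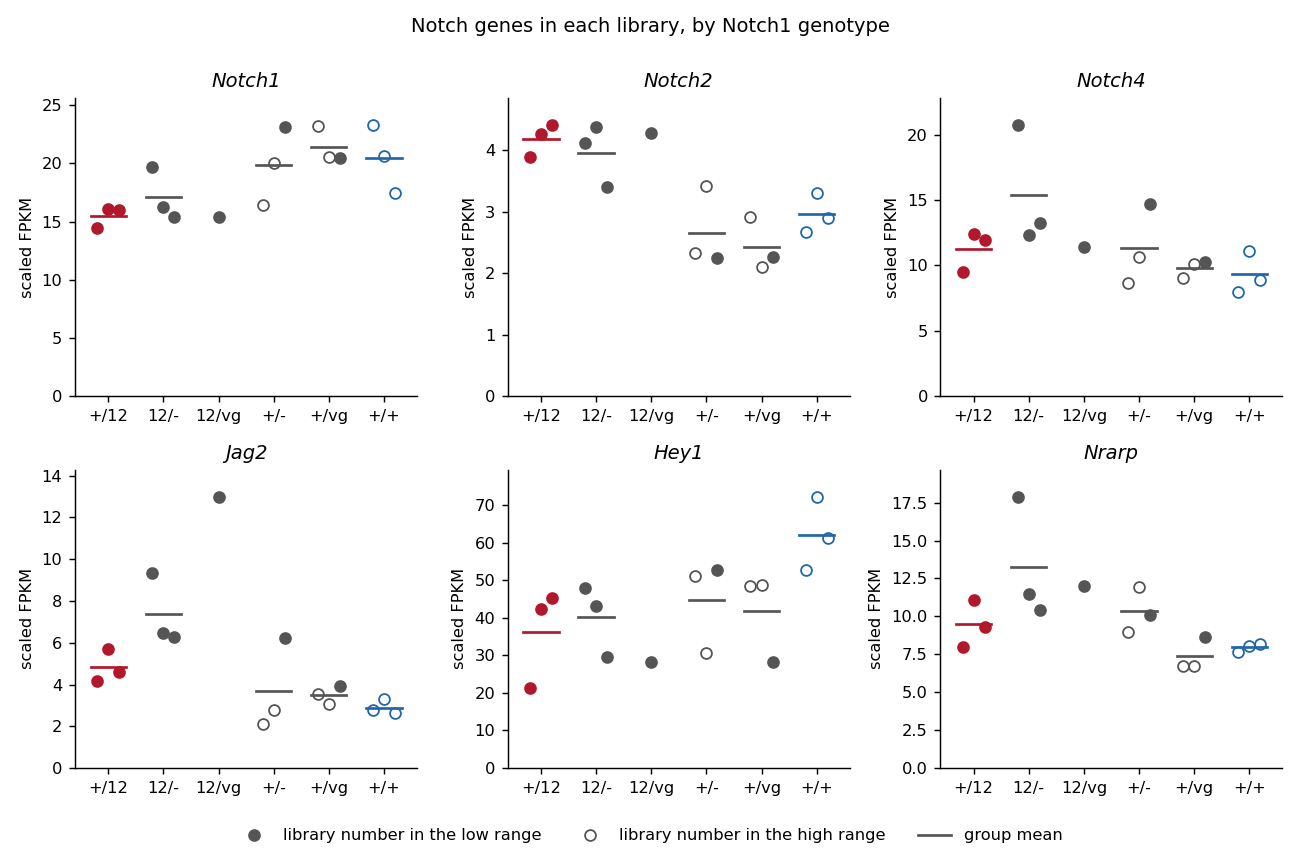
Scaled FPKM of 6 Notch genes in all 16 libraries, by genotype, with filled points for library numbers in the low range, open points for the high range and lines for group means. For Notch1, Notch2, Jag2 and Hey1 the +/12 and +/+ libraries do not overlap, and for Notch4 and Nrarp they do.

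Among the ligands, 5 of 8 were expressed enough to be tested. Jag2 (chromosome 12) was at 4.15, 5.71 and 4.60 scaled FPKM in the +/12 libraries, against 2.76, 3.30 and 2.62 in the +/+ libraries, so that the groups did not overlap. Its log2 fold change was 0.58 ± 0.25 (SE), with an unadjusted p of 0.0411 and an adjusted p of 0.898 in limma. The same gene was higher in the low-range libraries of +/- and +/vg by 0.64, and with the range as a term its genotype difference was -0.06. Dll4, the main Notch ligand of arterial and tip cells, was at 5.85, 10.7 and 8.86 in +/12 libraries, against 9.83, 6.40 and 10.4 in +/+ libraries, a log2 fold change of -0.07 ± 0.27 (SE). Jag1, which can oppose Dll4 at sprouts, differed by 0.02 ± 0.18, Dll1 by 0.07 ± 0.28 and the non-canonical ligand Dlk1 by 0.19 ± 0.27 (SE). The groups of Dll4, Jag1, Dll1 and Dlk1 overlapped.

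The 3 Fringe genes, whose products add sugars that tune ligand choice, had log2 fold changes of 0.12 for Lfng, 0.06 for Mfng and 0.22 for Rfng, with overlapping groups. Mfng was at 38.8, 37.9 and 35.2 scaled FPKM in +/12 libraries, against 33.5, 35.1 and 39.0 in +/+ libraries, so the groups overlapped. With the range as a term the differences were -0.66 for Lfng, -0.46 for Mfng and -0.04 for Rfng, and the median of the 5 glycosyltransferase genes was -0.36, beside 0.06 without it. Of 12 cleavage and trafficking genes, 1 had an unadjusted p under 0.05, beside 5.37% of all genes. This was Mib1, the ubiquitin ligase that makes ligands active in the sending cell, at 8.61, 9.67 and 9.65 in +/12 libraries, against 12.0, 13.1 and 11.8 in +/+ libraries. The groups did not overlap, and the difference was -0.37 ± 0.14 (log2, SE) with a limma adjusted p of 0.898. In +/- and +/vg its range difference was 0.09. The 13 genes of the nuclear complex, Rbpj and its cofactors, had a median log2 fold change of -0.01, or 0.06 with the range as a term, and their values ran from -0.14 to 0.33 (limma), with 0 at an unadjusted p under 0.05.

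Hey1, a transcriptional repressor and one of the best known Notch targets in arteries (chromosome 3, 8663359 to 8667038, mm9), was at 21.2, 42.2 and 45.2 scaled FPKM in the +/12 libraries, against 52.6, 72.1 and 61.3 in the +/+ libraries. The groups did not overlap, and +/12 replicate 1 stood well below the other 2. The log2 fold change was -0.82 ± 0.32 (SE, 95% interval -1.51 to -0.14), with an unadjusted p of 0.0224 and an adjusted p of 0.898 in limma. Without +/12 replicate 1 it was -0.48, and with the range as a term -0.64. Hey1 levels in 12/- libraries were 47.9, 43.0 and 29.5, in +/- libraries 51.1, 30.5 and 52.8, and in +/vg libraries 48.3, 48.7 and 28.1. The 12/vg library had 28.3, and both it and +/- replicate 2 (30.5) are shallow. Apart from +/- replicate 3, all these libraries lay below every +/+ library.

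Hes1, a repressor, was at 46.4, 19.9 and 30.8 scaled FPKM in +/12 libraries, against 25.7, 38.3 and 37.5 in +/+ libraries (-0.12 ± 0.27, log2 fold change and SE). Nrarp, a feedback inhibitor of the pathway, was at 8.01, 11.1 and 9.33 in +/12 libraries, against 7.66, 8.04 and 8.21 in +/+ libraries, a difference of 0.21 ± 0.18 (SE). Both genes had overlapping groups. The arterial ephrin Efnb2 differed by -0.12 ± 0.22, the gap junction genes Gja4 and Gja5 by 0.01 ± 0.29 and -0.13 ± 0.25, Hey2 by 0.16 ± 0.22, Sox17 by -0.09 ± 0.34 and Myc by -0.19 ± 0.30 (log2, SE). Acta2, smooth muscle actin, was at 6.04, 7.65 and 6.31 in +/12 libraries, against 9.16, 9.90 and 11.7 in +/+ libraries, with no overlap (-0.55 ± 0.23, SE, limma adjusted p = 0.898). With the range as a term it differed by -0.26. The cell cycle inhibitor Cdkn1a had the largest positive log2 fold change of the 19 targets tested, 0.81 ± 0.41 (SE), and -0.07 with the range as a term.

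Of 27 targets 19 were tested, and at an unadjusted p under 0.05 there were 0 higher and 2 lower, beside 3.04% and 2.33% of all genes. Of the 19, 8 had a positive log2 fold change, and the median was -0.07. That median was 0.06 without +/12 replicate 1, 0.01 without +/+ replicate 1, 0.00 without +/12 replicate 2 and 0.01 with no filter, so it has no settled sign, and with the range as a term it was -0.01. Over all 6 Notch lists together, 57 of 73 genes were tested, and an unadjusted p under 0.05 was found for 2 higher and 4 lower genes (10.5%, beside 5.37% of all genes). The higher ones were Notch2 and Jag2, and the lower ones Notch1, Mib1, Hey1 and Acta2. This share therefore includes Notch1 and Notch2, the genes whose parts the 12 allele combines. In 9 of the 57 the groups did not overlap, beside 12.6% of all genes (6.6% higher and 5.97% lower). The median log2 fold change of the 57 was 0.02, and 31 were positive, beside 50.1% of all genes.

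The 18 arterial genes had a median log2 fold change of -0.02, the 10 venous genes -0.03, the 20 tip cell and sprouting genes 0.01 and the 8 genes of the VEGF system 0.03. With the range as a term these medians were -0.20, -0.15, -0.04 and 0.15, in the same order. Hey1 was their 1 member with an unadjusted p under 0.05, beside 5.37% of all genes. The arterial marker Cxcr4 was at 4.12, 2.13 and 2.88 scaled FPKM in +/12 libraries, against 1.44, 2.94 and 0.925 in +/+ libraries, with overlap. Of 37 pan-endothelial genes 0 had an unadjusted p under 0.05, and their median was 0.09, or -0.05 with the range as a term. Pecam1, which encodes CD31, was at 61.8, 54.0 and 53.6 in +/12 libraries, against 49.8, 47.5 and 50.8 in +/+ libraries, and the endothelial cadherin Cdh5 was at 155, 194 and 176 in +/12 libraries, against 167, 165 and 154 in +/+ libraries. Both markers of endothelium were present at high levels in all 6 libraries. Pecam1 did not overlap, and with the range as a term its log2 fold change was -0.19, beside 0.19 without it.

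The endocardial list of 14 genes had a median of 0.04, or -0.13 with the range as a term. Npr3, which encodes a clearance receptor for natriuretic peptides, was at 10.8, 11.2 and 11.3 scaled FPKM in +/12 libraries, against 13.7, 14.3 and 14.5 in +/+ libraries. The spread within each group was small and the groups did not overlap, and the log2 fold change was -0.32 ± 0.15 (SE), with a limma adjusted p of 0.898 and an unadjusted p of 0.0510. In the +/- libraries Npr3 ran over both groups, at 9.13, 10.2 and 15.2. The 20 genes of the BMP and TGF-beta list had a median of 0.06, or -0.20 with the range as a term. Of these Smad7, an inhibitor of TGF-beta signalling, was at 4.94, 5.18 and 5.18 in +/12 libraries, against 4.58, 3.82 and 3.62 in +/+ libraries (0.29 ± 0.13, SE, limma adjusted p = 0.898).

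**Figure D3:**
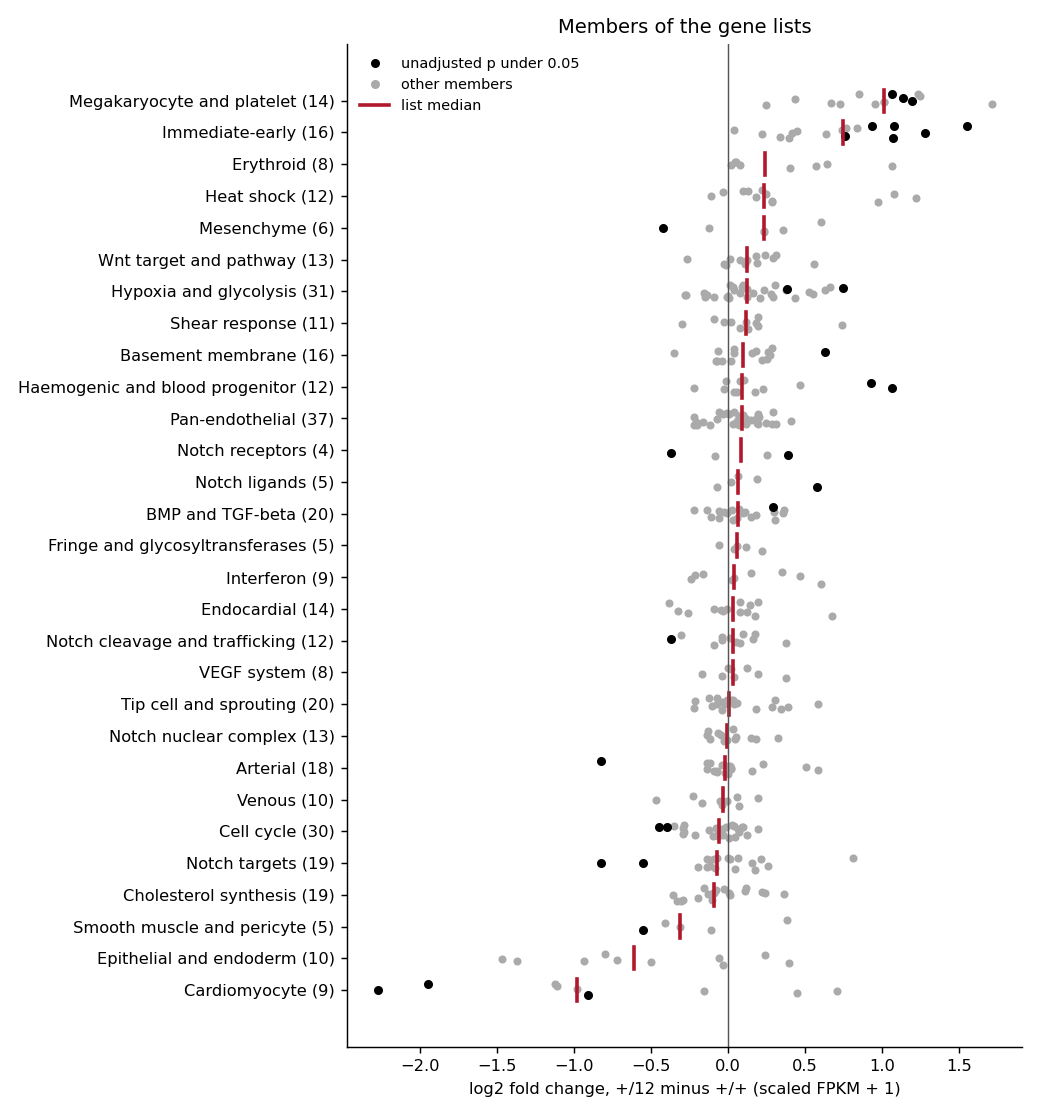
Log2 fold change of +/12 minus +/+ for the members of 29 gene lists with at least 4 genes tested (number in brackets), with black points for an unadjusted p under 0.05 and a red line for the list median. Most medians lie near 0, and those of the megakaryocyte and platelet, immediate-early, epithelial and endoderm, and cardiomyocyte lists lie farthest from it, at 1.01, 0.75, -0.61 and -0.98.

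Immediate-early genes are those that cells switch on within minutes of stimulation or handling. All 16 had a positive log2 fold change, beside 50.1% of all genes, with a median of 0.75, beside 0.00 over all genes. Of the 16, 6 had an unadjusted p under 0.05, all higher, beside 3.04% of all genes, and none passed the adjusted test. Fosb, a partner of Jun in the AP-1 factor, was at 37.2, 18.4 and 21.2 scaled FPKM in +/12 libraries, against 9.55, 16.1 and 8.70 in +/+ libraries (1.08 ± 0.37, SE, limma adjusted p = 0.898, and 0.05 with the range as a term). Zfp36, which promotes mRNA decay, was at 39.4, 21.7 and 27.8 in +/12 libraries, against 15.8, 20.8 and 13.9 in +/+ libraries (0.76 ± 0.26, SE, and 1.09 with the range as a term). Neither gene's groups overlapped, and +/12 replicate 1 was the highest library for both. The other 4 with an unadjusted p under 0.05, named after their values were seen, were Egr1, Egr3, Ier3 and Nr4a1. Fos itself overlapped, at 32.8, 14.0 and 17.8 in +/12 libraries, against 12.1, 19.4 and 14.7 in +/+ libraries.

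The mean log2 level of the 16 genes was 4.65, 3.71 and 3.86 in the +/12 libraries, against 3.37, 3.57 and 3.12 in the +/+ libraries. The groups did not overlap, and +/12 replicate 1 was the highest of all 16 libraries. Without that library the median log2 fold change of the list was 0.39, and with the range as a term it was also 0.39. In the +/vg libraries, which carry no 12 allele, the mean level was 4.58, 4.39 and 4.51, above +/12 replicates 2 and 3. It was 3.28, 3.57 and 4.00 in the +/- libraries, which carry none either. In the 12/- libraries it was 4.12, 3.50 and 3.71, and in the 12/vg library 3.55. Libraries with and without a 12 allele thus overlapped. The 12/vg library and +/- replicate 2 are shallow. No label records how long sorting took, and its part in these levels was not tested.

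All 14 megakaryocyte and platelet genes had a positive log2 fold change, beside 50.1% of all genes, with a median of 1.01. An unadjusted p under 0.05 was found for 3 of them, all higher, beside 3.04% of all genes, and for none an adjusted one. Tubb1, the platelet tubulin, was at 6.08, 3.21 and 9.22 scaled FPKM in +/12 libraries, against 1.40, 2.57 and 2.37 in +/+ libraries. Itga2b, an integrin of platelets and early blood progenitors, was at 16.8, 7.91 and 17.4 in +/12 libraries, against 5.80, 7.34 and 4.63 in +/+ libraries. The groups of Tubb1 and Itga2b did not overlap, while those of Gp5, the 1 other member under that threshold, did. The most abundant member, the chemokine Pf4, also overlapped, at 1778, 513 and 959 in +/12 libraries, against 225, 772 and 614 in +/+ libraries. Summed over the list the level was 2155, 654 and 1258 in +/12 libraries, against 309, 927 and 743 in +/+ libraries. These sums overlapped, since +/12 replicate 2 was below +/+ replicates 2 and 3.

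These genes moved with the range of library numbers as well. The range difference estimated from +/- and +/vg was positive for all 14, with a median of 0.86, and with the range as a term the median genotype difference was -0.02. Without +/+ replicate 1, the library with the least platelet RNA, the median was 0.64. In bulk RNA a difference in the number of cells of a type and one in RNA per cell cannot be told apart. Gfi1b, a factor of megakaryocytes and red cells, was at 7.40, 4.49 and 7.92 in +/12 libraries, against 3.11, 3.55 and 2.20 in +/+ libraries (0.93 ± 0.39, SE, limma adjusted p = 0.898). The other haemogenic genes, among them Runx1, Kit and Gata2, had values from -0.22 to 0.46 beside Itga2b and Gfi1b. The 8 erythroid genes tested had a median of 0.24, or -0.16 with the range as a term, with overlapping groups for each of the 8.

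Of 20 heart muscle genes 9 were tested, and 3 of these were lower at an unadjusted p under 0.05, beside 2.33% of all genes. Tnnt2, at a mean FPKM of 8.93, was left out because the deposited status of a transcript was not OK. The rest had a mean FPKM below 1. Myl2, the ventricular myosin light chain, was at 0.916, 0.268 and 0 scaled FPKM in +/12 libraries, against 10.1, 1.81 and 7.76 in +/+ libraries. Its groups did not overlap, and the difference was -2.27 ± 0.53 (log2, SE) with a limma adjusted p of 0.863. Myl3 was at 0.539, 0 and 0 in +/12 libraries, against 3.28, 1.57 and 6.95 in +/+ libraries. Myl4, the third member with an unadjusted p under 0.05, was at 2.12, 1.79 and 1.71 in +/12 libraries, against 5.52, 2.75 and 5.37 in +/+ libraries. Myl2 was highest in +/+ replicates 1 and 3, which weigh in the mean FPKM that a gene needed to be tested, and its median in the 10 libraries of other genotypes was 0.666. Over the 9 genes the median log2 fold change was -0.98, and without +/+ replicate 2 it was -1.79. Of the 9, 2 were positive, beside 50.1% of all genes. At a stricter filter, a mean FPKM of at least 5, 2 genes were left with a median of 0.15, and with no filter the median was -0.28. Summed over all 20 listed genes, tested or not and with Tnnt2 among them, +/12 libraries ran from 38.4 to 63.4 and +/+ libraries from 30.3 to 96.7. These sums overlapped, and +/+ replicate 2 was below all 3 +/12 libraries, with +/+ replicates 1 and 3 the highest 2 of the 16 libraries.

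The 10 epithelial and endoderm genes tested of 17 had a median of -0.61, or 0.30 with the range as a term, with 0 at an unadjusted p under 0.05. The median was -0.22 without +/+ replicate 1, -0.21 with a pseudocount of 5, -0.05 with no filter and 0.09 over the 2 genes left at the stricter filter. Summed over all 17 listed genes, tested or not, the highest +/12 library (replicate 2) was at 72.1 and the highest +/+ library (replicate 1) at 57.1, and the groups overlapped. Afp, made by yolk sac endoderm and early liver, was listed at 0, 0 and 0.0538 scaled FPKM in +/12 libraries, against 5.12, 0.738 and 0.708 in +/+ libraries. For macrophages 3 of 13 genes and for neural cells 2 of 17 reached the mean FPKM of 1 needed for the test, and 0 of these had an unadjusted p under 0.05. The 5 smooth muscle and pericyte genes had a median of -0.31, or -0.23 with the range as a term, with 1 positive, beside 50.1% of all genes. Acta2 was the 1 below that threshold, beside 2.33% of all genes, lower. The 6 mesenchyme genes had a median of 0.23, or -0.59 with the range as a term, with 4 positive, beside 50.1% of all genes. The 1 below the threshold was lower, against that median: Foxc2, a forkhead factor also made in endothelium. It was at 8.99, 8.46 and 7.41 in +/12 libraries, against 12.5, 10.6 and 11.2 in +/+ libraries. The part of these cells in the differences was not tested.

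**Figure D4:**
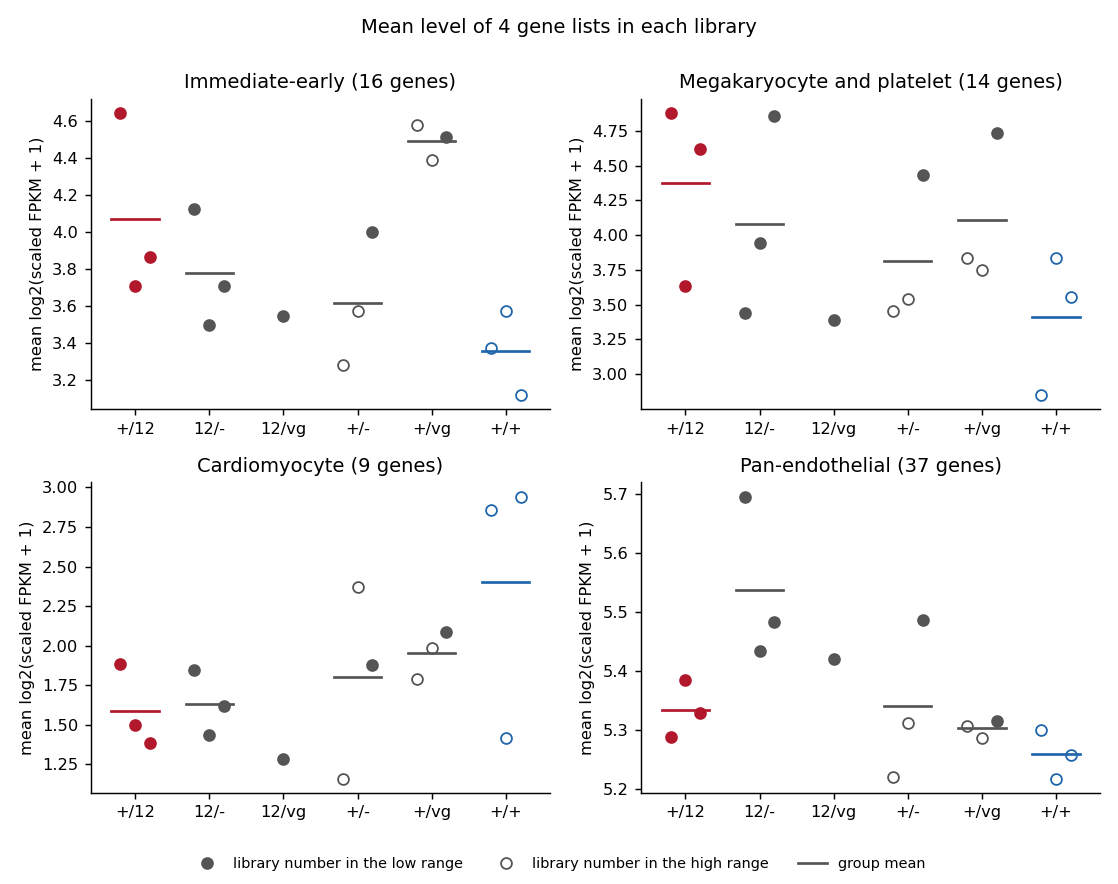
Mean log2(scaled FPKM + 1) over the members of 4 lists in each library, with filled points for low library numbers, open points for high ones and lines for group means. The y axes do not start at 0. In +/- and +/vg the filled point of the megakaryocyte and platelet list lies above both open ones, and the immediate-early level of +/12 replicate 1 (4.65) stands above the other +/12 libraries (3.71 and 3.86).

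Of 31 hypoxia and glycolysis genes 24 had a positive log2 fold change, beside 50.1% of all genes. Their median was 0.12, or 0.30 with the range as a term. An unadjusted p under 0.05 was found for 2 of them, beside 5.37% of all genes. Bhlhe40, a repressor induced by low oxygen, was at 2.54, 4.24 and 1.73 scaled FPKM in +/12 libraries, against 1.32, 1.06 and 1.25 in +/+ libraries (0.74 ± 0.24, SE, limma adjusted p = 0.898). Pfkp, a phosphofructokinase of glycolysis, was at 2.89, 4.27 and 3.75 in +/12 libraries, against 2.62, 2.59 and 2.40 in +/+ libraries (0.38 ± 0.15, SE). Both genes had no overlap, and +/12 replicate 2 was the highest of the 6 for each. Without +/12 replicate 2 the list median was -0.02, and without replicate 1 it was 0.26. Of 16 basement membrane genes (median 0.10, or -0.02 with the range as a term), the matrix protein gene Sparcl1 was at 7.94, 8.71 and 7.74 in +/12 libraries, against 6.35, 4.40 and 4.19 in +/+ libraries (0.63 ± 0.20, SE, limma adjusted p = 0.898), and 0.14 with the range as a term.

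The 30 cell cycle genes had a median of -0.06, or 0.03 with the range as a term, and 2 of them, both lower, had an unadjusted p under 0.05, beside 5.37% of all genes in either direction. The D-type cyclin gene Ccnd2 was at 10.5, 11.4 and 11.7 scaled FPKM in +/12 libraries, against 12.9, 17.5 and 14.9 in +/+ libraries (-0.39 ± 0.12, SE, limma adjusted p = 0.898), and it was -0.37 with the range as a term. The mitotic cyclin gene Ccnb1 was at 19.5, 20.3 and 21.2 in +/12 libraries, against 23.9, 31.1 and 29.9 in +/+ libraries (-0.45 ± 0.16, SE), and it was -0.10 with the range as a term. Neither gene's groups overlapped. Cholesterol synthesis, interferon, heat shock, Wnt and shear response lists had medians of -0.09, 0.04, 0.23, 0.13 and 0.12, with 0 members under that threshold. With the range as a term these were -0.25, 0.05, 0.28, 0.00 and 0.01.

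The genes with the smallest p were named by rule, 12 higher and 12 lower with groups that do not overlap, so their separation is given by the choice. Clstn1, which encodes the membrane protein calsyntenin 1 (chromosome 4, 148960747 to 149022008, mm9), was at 2.98, 3.44 and 2.51 scaled FPKM in +/12 libraries, against 1.38, 1.06 and 0.663 in +/+ libraries. Its log2 fold change was 0.97 ± 0.15 (SE, 95% interval 0.64 to 1.31), with an adjusted p of 0.312 in limma. Was, an actin regulator of blood cells, was at 1.99, 2.31 and 2.58 in +/12 libraries, against 0.783, 0.669 and 0.695 in +/+ libraries (0.94 ± 0.18, SE, limma adjusted p = 0.863). For both genes the lowest +/12 library was above the highest +/+ library by more than the range of the +/+ libraries.

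Hmox1, the haem-degrading enzyme haem oxygenase, was at 19.3, 13.1 and 14.0 scaled FPKM in +/12 libraries, against 8.11, 8.96 and 10.3 in +/+ libraries (0.69 ± 0.17, SE). Nfkbia, the inhibitor of NF-kappaB, was at 5.68, 3.94 and 4.30 in +/12 libraries, against 1.84, 1.61 and 2.79 in +/+ libraries (0.88 ± 0.23, SE). Both are genes that respond to stress in many cell types. The insulin receptor substrate Irs2 was at 11.2, 5.15 and 5.55 in +/12 libraries, against 1.86, 3.25 and 2.13 in +/+ libraries (1.23 ± 0.31, SE), with +/12 replicate 1 again the highest. The others were Prkcc, Fah, Tmem98, Rnf34, Ttc32, Morf4l2 and Chac1, with log2 fold changes from 0.39 for Morf4l2 to 1.44 for Prkcc, and limma adjusted p-values of 0.863.

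Among the 12 lower genes Myl2 had the largest log2 fold change, given above, and the other 11 lay between -0.80 for Acyp1 and -0.44 for L3mbtl2, with limma adjusted p-values of 0.863. Tada1, a subunit of the SAGA histone acetyltransferase, was at 7.67, 8.24 and 8.03 scaled FPKM in +/12 libraries, against 13.0, 11.5 and 11.2 in +/+ libraries (-0.52 ± 0.14, SE). Blm, the RecQ helicase, was at 4.91, 6.32 and 5.25 in +/12 libraries, against 8.15, 8.51 and 8.22 in +/+ libraries (-0.52 ± 0.14, SE). Wdr12, a ribosome assembly factor, was at 5.23, 6.97 and 7.68 in +/12 libraries, against 9.68, 11.7 and 11.6 in +/+ libraries (-0.66 ± 0.16, SE). For Blm the 3 +/+ libraries lay closer together than the 3 +/12 libraries. The rest were the cAMP phosphodiesterase gene Pde7a, Hs1bp3, X99384, Ldlrad3, Tmem184b and Vmp1.

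**Figure D5:**
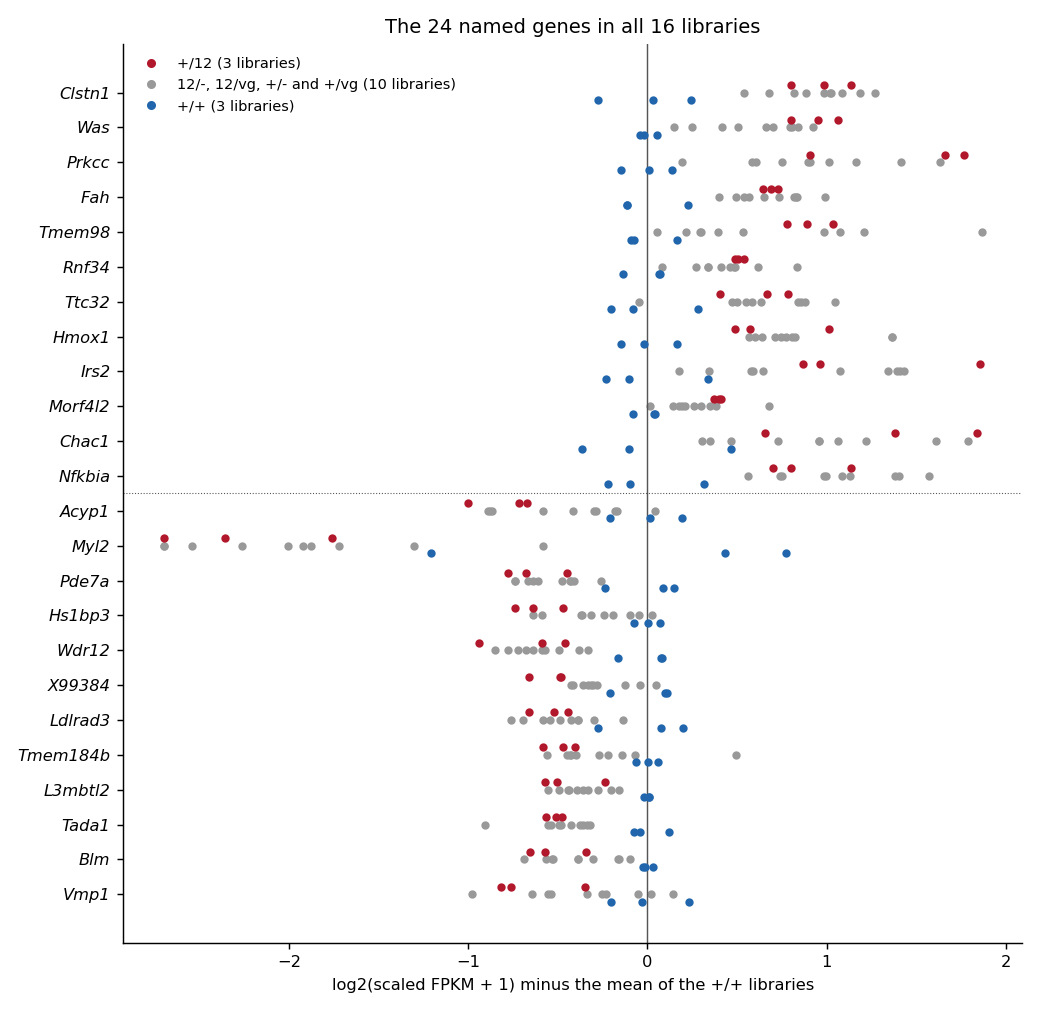
Log2(scaled FPKM + 1) of the 24 named genes in all 16 libraries, as a difference from the mean of the +/+ libraries, with +/12 libraries in red, +/+ libraries in blue and the 10 libraries of other genotypes in grey. Many grey points lie beside the red ones: for Clstn1 and Hmox1, 10 of 10 are above all +/+ libraries, and for Tada1 and Blm 10 of 10 are below them.

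Levels in the 10 libraries of other genotypes are given beside these genes, with no test, since the genes were chosen by their difference from the same +/+ libraries. For Clstn1 the 10 libraries ran from 1.92 to 3.87 scaled FPKM, and each was above all 3 +/+ libraries. For Hmox1 they ran from 14.0 to 25.0 and for Nfkbia from 3.49 to 8.06, also all above +/+. For Tada1 they ran from 5.85 to 9.28 and for Wdr12 from 5.64 to 8.50, all below +/+. In 7 of the 12 higher genes all 10 libraries were above all +/+ libraries, and in 5 of the 12 lower genes all 10 were below them. No share over all genes stands beside these counts, and the choice of genes favours them. The mean of the 10 libraries was nearer to +/12 than to +/+ in 12 of the 12 higher and 10 of the 12 lower genes, beside 63.4% of all genes. These 10 include 6 libraries of +/- and +/vg, which carry no 12 allele.

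The range difference, estimated within +/- and +/vg and without the +/12 and +/+ libraries, had the same sign as the genotype difference in 79.1% of the 321 higher and 74.4% of the 246 lower genes, beside 50.9% and 49.1% of all genes. Among the named genes this held for 10 of the 12 higher and 9 of the 12 lower ones. Over the 12 higher genes the range difference ran from -0.35 for Nfkbia to 0.44 for Tmem98 on the log2 scale, and over the 12 lower genes from -0.36 for Vmp1 to 0.33 for Acyp1. With the range as a term the log2 fold change was 0.46 for Tmem98, beside 0.90 without it, 0.66 for Was, beside 0.94, and -0.29 for Vmp1, beside -0.64. It was 0.95 for Clstn1, beside 0.97, and 1.23 for Nfkbia, beside 0.88. All 24 kept their direction, which their choice by a small p in the same comparison favours. These shares are descriptions across genes, which are not independent.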

How the data were processed

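RNA of CD31-sorted endothelial cells from whole embryos was made into libraries by tagmentation, per the labels' protocols. The submitters' processing notes name the aligner TopHat2 2.0.9 and the build mm9, and neither a cufflinks version nor strandedness could be found in the labels or headers. The authors deposited an FPKM value for each of 28107 transcripts per library, in tables with the columns of cufflinks, per the file headers. The deposited coverage values were used for depth alone: coverage divided by FPKM was constant within a library (relative spread at most 6.26e-05) and gives the aligned sequence in gigabases. No counts were recovered, so there are no counting intervals, and overlapping or near-identical genes have uncertain values.

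FPKM values were summed over 22096 gene symbols (Python 3.11.15, pandas 2.3.3), leaving out 211 with a transcript whose status was not OK. Genes were tested where FPKM averaged at least 1 over the 16 libraries, which kept 10550 and would have kept 87 of the 211. Libraries were divided by median-ratio factors over 8610 genes and analysed as log2(scaled FPKM + 1), a scale that understates the change of low genes. The 16 libraries entered 1 limma fit in 6 groups with a trend (limma 3.58.1, R 4.3.3, two-sided, 10 residual degrees of freedom), and p-values were adjusted over all genes by Benjamini-Hochberg. The fitting was tested on data simulated with independent noise. These held no range difference, no shallow library and no change in low genes, so the test bears on the code and not on the limits of these libraries. Permutation tests used scipy 1.17.1.

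The genes named are Notch1, Notch2, Notch list members, the 12 genes with the smallest p in each direction among those whose groups do not overlap (without predicted, small RNA and sex-marking genes), and 2 genes of each other list by p. Some genes picked by this rule, such as Ttr of the epithelial and endoderm list, are not given above. Beside the rule, Pecam1, Cdh5, Fos, Pf4, Gp5, Myl4, Runx1, Kit and 4 immediate-early genes were named after their values were seen. The members and the 31 lists (522 of 523 entries matched) were chosen with earlier results of these data known. Up to 23 alternatives were tried for each main result, list and gene named by the rule, fewer where a filter removed the gene: scaling, pseudocount, filters, moderation, weights, the number range and libraries left out.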

Additional observations from a re-analysis of the deposited data

How the results depend on the processing

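At an adjusted p under 0.05 in limma there were 0 genes in the main setting, 567 at an unadjusted p, and 1 with the range of library numbers as a term (Mir3060, listed at 0 in all 6 libraries). Leaving out 1 library gave 0 to 2 such genes: 2 without +/+ replicate 1 (Mir3473d and Prm2), 2 without +/12 replicate 1 (Mir3074-2 and Mir339), 1 without +/12 replicate 2 (Mir687) and 1 without +/+ replicate 3 (Mir181b-2). The 567 genes at an unadjusted p under 0.05 became 1198 with no filter (18749 genes tested), 323 at a mean FPKM of at least 5 (6275 tested), 1035 with array weights and 335 with the range as a term (161 higher and 174 lower). Leaving out 1 library gave 401 to 898, with 401 without +/12 replicate 1 and 898 without +/+ replicate 1. Notch1 kept a negative log2 fold change in 23 of 23 alternatives, from -0.49 to -0.28, and Notch2 a positive one in the 22 that tested it, from 0.21 to 0.56. No paired analysis was possible because the labels give the groups no shared replicate numbers. With 3 libraries a group, a median SE of 0.19 and no counts, small changes of low genes are beyond what these libraries resolve.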
